A study of Mus musculus with 16 samples.

Results

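Tcf3, Tcf4, Tcf12 and Huwe1, which encode the dimer partners of ATOH1 and a ubiquitin ligase that acts on it, were taken as 4 genes of the 45513 counted in colon epithelium, by the symbols of their Ensembl identifiers. ATOH1, a transcription factor with a basic helix-loop-helix (bHLH) domain, specifies the secretory cells of the intestine. It binds DNA at the short E-box motif as a dimer with an E protein, a broadly expressed bHLH protein made from Tcf3 (E2A), Tcf4 or Tcf12 (HEB). Id proteins lack a DNA-binding region and hold E proteins in inactive dimers, and the HECT-type ligase HUWE1 marks ATOH1 for degradation. The symbols Tcf3 and Tcf4 here mean these bHLH genes and not Tcf7l1 and Tcf7l2, the Wnt effector genes whose proteins are also called TCF3 and TCF4.

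The 16 RNA-sequencing libraries came from the colon of 8 mice that shared 1 genotype, Atoh1(WT)CreERT2; Rosa26tdTom/+ on a C57BL/6 background, aged 8 to 16 weeks, of both sexes and given tamoxifen, 1 mg a day for 3 days by the labels. All mice were homozygous for an allele with CreERT2 placed after the Atoh1 coding sequence, so tdTom marks cells in which the Atoh1 locus was active when tamoxifen was given, as well as their descendants. From every mouse, live EpCAM+ cells with tdTom and live EpCAM+ cells without it were collected by sorting, which gave 8 libraries each. Each group was therefore a mixture of cells, and no group without the knock-in allele or without tamoxifen was compared.

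Total counts were 16482530 to 24218367 in tdTom+ and 18318172 to 45791503 in tdTom− libraries, the highest being that of mouse 4, where no other tdTom− library passed 20668605. Atoh1, the gene behind the label, had 102 to 166 counts per 1e6 counts (CPM, scaled by TMM) in tdTom+ and 3.18 to 8.89 CPM in tdTom− libraries, a log2 fold change of 4.54 (SE 0.15, edgeR adjusted p = 1.14e-15, higher in 8 of 8 mice). All 8 goblet markers rose, from Zg16 (log2 fold change 3.56) to Spink4 (5.03), and all 7 enteroendocrine markers fell, from Gcg (−0.84) to Tph1 (−3.56). Of 8 absorptive markers 7 fell and Guca2b rose (1.62). Cyp3a11, the lowest of them, was at 0 CPM in the tdTom+ libraries and at a mean of 0.951 CPM in the tdTom− libraries. Of 7 markers of colon epithelium 6 fell, Krt20 most (−3.30), and Krt18 rose (0.68). Of 5 stem cell markers 3 fell, Lgr5 most (−0.71), and 2 rose, Rgmb most (0.53). Of 5 tuft markers tested 3 fell, Sh2d6 most (−1.11), while Pou2f3 had a log2 fold change of 0.05 (adjusted p = 0.821). Of 8 cycling markers 4 fell, Aurka most (−0.52), and 4 were not called, among them Cdk1 at −0.14. With the mouse as a block 7 fell. Over all genes tested, 25.5% passed as higher and 25.5% as lower at an edgeR adjusted p under 0.01. With the block 57.2% passed in either direction.

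The reference promoters of the members are shown because the factors encoded here bind E-boxes themselves. RefSeq start sites on GRCm38.p6 were found for 3 of the 4 genes. The bases from 250 to 51 before the start are given 5′ to 3′ on the gene's strand, with each E-box, CANNTG, in capitals. For Tcf12, which has 3 listed starts, the most upstream is printed. Tcf3 lies at chr10:80433686-80433885 (minus strand), Tcf12 at chr9:72111870-72112069 (minus strand) and Huwe1 at chrX:151803032-151803231 (plus strand).
Tcf3: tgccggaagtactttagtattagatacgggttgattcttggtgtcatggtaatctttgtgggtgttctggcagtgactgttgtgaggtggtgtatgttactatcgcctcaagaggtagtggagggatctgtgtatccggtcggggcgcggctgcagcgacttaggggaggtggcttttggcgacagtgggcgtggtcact
Tcf12: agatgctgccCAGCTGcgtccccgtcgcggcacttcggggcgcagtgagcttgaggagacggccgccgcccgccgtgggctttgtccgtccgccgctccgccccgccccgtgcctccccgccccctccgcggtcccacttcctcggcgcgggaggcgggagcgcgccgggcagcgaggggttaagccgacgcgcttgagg
Huwe1: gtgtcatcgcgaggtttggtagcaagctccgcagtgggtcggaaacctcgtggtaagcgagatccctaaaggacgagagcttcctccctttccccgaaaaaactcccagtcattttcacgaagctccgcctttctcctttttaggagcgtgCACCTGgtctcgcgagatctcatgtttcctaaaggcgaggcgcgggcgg
The Tcf12 window held 1 E-box, CAGCTG, which began 240 bases before the start. The Huwe1 window held 1 as well, CACCTG, beginning 99 bases before the start, and the Tcf3 window held 0. The RefSeq start used for Huwe1 lies downstream of the first base of the counted gene, 151800807. The Huwe1 window therefore falls inside the counted span and not upstream of it. Since the motif reads the same on both strands, 1 strand was searched, and 59.0% of all 32851 RefSeq promoter windows of 200 bases held it. The 3 windows are a description of the reference, and binding was not measured.

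The E protein genes did not share a direction. Tcf3 fell in tdTom+ cells, Tcf4 was lower by a similar amount without passing the threshold of an adjusted p of 0.01, and Tcf12 was higher without passing it. Over all 15841 genes tested, 51.0% passed in either direction, 25.5% as higher and 25.5% as lower in tdTom+ cells, and 1 of the 4 members passed. With the mouse as a block, 57.2% of all genes and 2 of the 4 members (Tcf3 and Tcf4) passed. In 51.4% of all genes tested the 8 mice had the same direction, and in 30.5% the CPM ranges of the groups did not overlap; the ranges overlapped for all 4 members. The median absolute log2 fold change over all genes tested was 0.33, and each of the 4 members was below it. In bulk samples such as these, fewer cells of a type and less RNA per cell cannot be told apart.

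**Figure D1:**
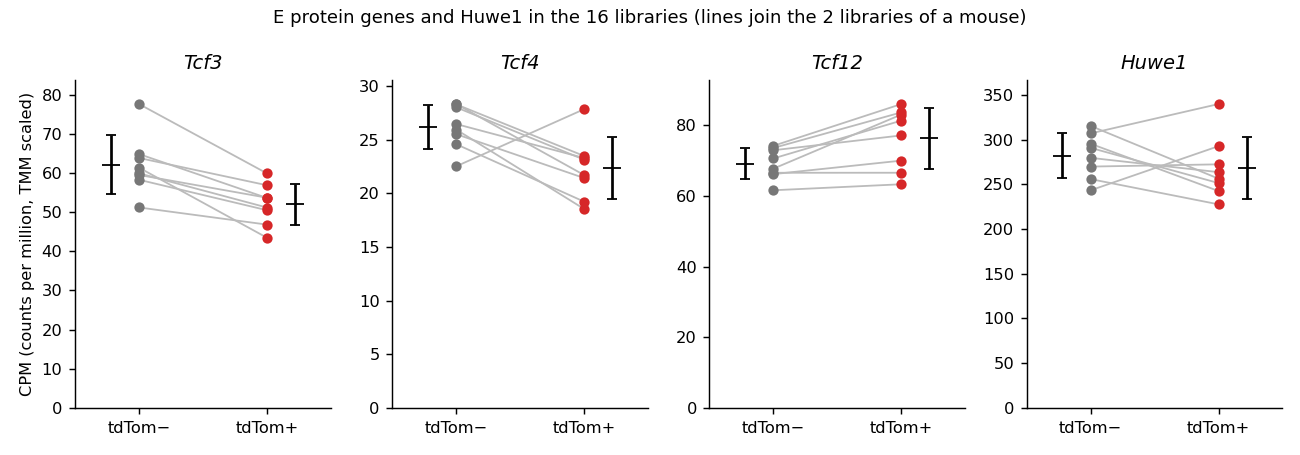
CPM (linear axis from 0) of Tcf3, Tcf4, Tcf12 and Huwe1 in the tdTom− (grey) and tdTom+ (red) libraries; a line joins the libraries of a mouse, and bars beside the points give the mean ± SD of 8. Every Tcf3 line runs down, the Tcf12 lines run up or level, 1 Tcf4 line (mouse 6) runs up, and the Huwe1 lines run in both directions.

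Tcf3 (ENSMUSG00000020167, chromosome 10, 80409514 to 80433647, minus strand) encodes E2A, the E protein that gave the family its name. Its tdTom− libraries had 51.2, 60.6 and 77.6 CPM as lowest, median and highest, and its tdTom+ libraries 43.5, 52.4 and 59.9. The tdTom+ library was below the tdTom− library of the same mouse in 8 of 8 mice, although the ranges overlapped. The means were 52.0 ± 5.27 CPM in tdTom+ and 62.0 ± 7.53 CPM in tdTom− (SD, n = 8 each). The log2 fold change was −0.26 (SE 0.08, 95% interval −0.41 to −0.10), a level in tdTom− cells 1.19 times that in tdTom+ cells, with an edgeR adjusted p of 0.00633. The exact two-sided sign-flip permutation test over the 8 mice gave p = 0.0078, the smallest it can give. Mice were left out 1 at a time in fits with no term for the mouse. The call was lost when mouse 1, 3, 5, 6, 7 or 8 was left out (edgeR adjusted p = 0.0106 to 0.0169, log2 fold change −0.27 to −0.22). It was kept with mouse 2 or mouse 4 left out. With the mouse as a block the value was −0.25 and passed (adjusted p = 0.000194). Within mice 1 to 3 the log2 fold change was −0.19 (adjusted p = 0.155) and within mice 5 to 8 −0.26 (adjusted p = 0.0109). The summed level of the 8 cycling markers was also lower in tdTom+ cells in 8 of 8 mice, at 542 to 858 CPM against 661 to 1156 CPM, and the mitochondrial share of counts was lower in 8 of 8 mice as well, at 2.23 to 6.92% against 3.74 to 9.97%. The part of either in the Tcf3 difference was not tested. The count per gene does not separate the splice forms of Tcf3 that differ in their DNA-binding region.

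Tcf4 (ENSMUSG00000053477, chromosome 18, 69344146 to 69687967, plus strand) encodes the E protein best known from plasmacytoid dendritic cells and neurons. It was the least counted member, with 22.5, 26.2 and 28.3 CPM as lowest, median and highest in tdTom− and 18.5, 22.4 and 27.8 CPM in tdTom+ libraries. In 7 of 8 mice the tdTom+ library was the lower. Mouse 6 went the other way, with 27.8 CPM in tdTom+, the highest of its group, and 22.5 CPM in tdTom−, the lowest of its group. The log2 fold change was −0.23 (SE 0.08, 95% interval −0.39 to −0.07, edgeR adjusted p = 0.0134), and the exact sign-flip permutation test gave p = 0.0469. With the mouse as a block the value was −0.23 and passed (adjusted p = 0.00897). Without mouse 6 it was −0.30 and passed (adjusted p = 0.000803). The mean of the differences in log2 CPM was −0.36 in mice 1 to 3, −0.18 in mouse 4 and −0.16 in mice 5 to 8. Markers of other cell types moved the same way. The 10 leukocyte markers summed to 2.25 to 4.72 CPM in tdTom+ and 4.315 to 11.02 CPM in tdTom− libraries, lower in tdTom+ in 8 of 8 mice. Ptprc, the leukocyte common antigen, made up most of this, with means of 2.17 and 6.23 CPM (log2 fold change −1.52), while Itgae, at 0.30, was not called (adjusted p = 0.372) and genes such as Cd3g, Cd79a and Siglech, a plasmacytoid dendritic cell gene, had at most 3 counts in any library. The 12 markers of stroma, endothelium and nerve summed to 5.201 to 6.69 and 6.72 to 9.61 CPM, with Pecam1, an endothelial adhesion gene, lowest at a log2 fold change of −1.58. Of these, Col1a2, Col3a1, Dcn, Cdh5 and Sox10 had at most 3 counts in any library. The part of such cells in the Tcf4 difference was not tested.

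Tcf12 (ENSMUSG00000032228, chromosome 9, 71842688 to 72111871, minus strand) encodes HEB. Its lowest, median and highest levels were 61.6, 69.2 and 74.2 CPM in tdTom− and 63.3, 79.2 and 86.0 CPM in tdTom+ libraries. The tdTom+ library was the higher in each mouse but mouse 2, whose libraries both had 66.5 CPM, and the spread was wider among tdTom+ libraries (SD 8.64 CPM) than among tdTom− libraries (SD 4.41 CPM). The log2 fold change was 0.14 (SE 0.07, 95% interval 0.00 to 0.28, edgeR adjusted p = 0.0678). The exact sign-flip permutation test over the 8 mice, which uses the pairing, gave p = 0.0078. The mean of the differences in log2 CPM was 0.08 in mice 1 to 3, 0.21 in mouse 4 and 0.16 in mice 5 to 8. With the mouse as a block together with a correction for gene length the log2 fold change was 0.18 and passed (adjusted p = 0.00122), and with GC content corrected as well it was 0.17 (adjusted p = 0.00217).

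Relative to Tcf3, more Tcf12 was found in the tdTom+ library of 8 of 8 mice. The Tcf12 level was 1.31 times as large relative to Tcf3 in tdTom+ cells as in tdTom− cells, the geometric mean over 8 mice, with a range of 1.09 to 1.61. The same ratio to Tcf4 was 1.30, from 0.855 in mouse 6 to 1.61. The ratio of Tcf4 to Tcf3 was 1.01, higher in 4 mice and lower in 4. Per length of all annotated exons, Tcf3 was 69.8% ± 2.33 of the summed E protein level in tdTom− and 65.6% ± 2.60 in tdTom+ cells (SD, n = 8), Tcf12 20.4% ± 1.47 and 25.1% ± 2.64, and Tcf4 9.80% ± 0.98 and 9.30% ± 0.97. The Tcf12 share was the higher in tdTom+ cells in 8 of 8 mice and the Tcf3 share the lower in 8 of 8. These shares have no test, since they are scores over the members.

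The order of the levels per length depended on the length used. In CPM per kilobase (RPKM) over all annotated exons, the tdTom− means were 15.4 ± 1.86 for Tcf3, 12.0 ± 1.06 for Huwe1, 4.45 ± 0.28 for Tcf12 and 2.14 ± 0.17 for Tcf4, and the tdTom+ means were 12.9 ± 1.30, 11.4 ± 1.48, 4.92 ± 0.56 and 1.82 ± 0.24 (SD, n = 8). Tcf3 and Huwe1 lay within their spread of each other in tdTom+ cells. The merged exons of Tcf12, 15529 bases, are longer than its longest coding transcript, 6299 bases, whereas those of Tcf3 are 4039 against 2950 bases. On the transcript length, Tcf12 stood at 10.98 and 12.1 RPKM in tdTom− and tdTom+ cells, Tcf3 at 21.03 and 17.6, Huwe1 at 19.4 and 18.4 and Tcf4 at 3.05 and 2.60. By either length Tcf4 was lowest and Tcf12 was next, and Tcf3 and Huwe1 changed places in tdTom+ cells.

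Huwe1 (ENSMUSG00000025261, chromosome X, 151800807 to 151935417, plus strand) was the most counted member, with 3886 to 15796 counts per library. Its lowest, median and highest levels were 243, 285 and 315 CPM in tdTom− and 228, 260 and 340 CPM in tdTom+ libraries. It was lower in tdTom+ cells in mice 1, 2, 3, 5 and 8 and higher in mice 4, 6 and 7. The log2 fold change was −0.07 (SE 0.08, edgeR adjusted p = 0.432) and the exact sign-flip permutation p was 0.297. The 95% interval, −0.23 to 0.09, spans a tdTom+ level 0.850 to 1.06 times the tdTom− level, and the data do not tell apart differences within it. The mean of the differences in log2 CPM was −0.22 in mice 1 to 3, 0.15 in mouse 4 and −0.03 in mice 5 to 8. The Atoh1 level relative to Huwe1, per exon length, was 5.61 ± 1.04 in tdTom+ and 0.232 ± 0.09 in tdTom− cells (SD, n = 8), a ratio of ratios of 25.2. On the longest coding transcript the level was 3.42 and 0.142, with the same ratio of ratios.

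The Huwe1 transcript spans 3 microRNA genes, Mir3113, Mirlet7f-2 and Mir98. Their exons had 0 counts in all 16 mRNA libraries, which are not made to capture microRNAs. Mir3113 lies inside a Huwe1 exon on the same strand, and reads shared between genes were not counted. Its 0 was therefore set by the counting. The mature sequences of the RefSeq tables are shown, seed (bases 2 to 8) in capitals, because let-7f and miR-98 of the 5′ arm share a seed.
mmu-let-7f-5p (chrX:151912353-151912374): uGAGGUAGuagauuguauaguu
mmu-miR-98-5p (chrX:151913229-151913250): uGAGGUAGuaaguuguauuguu
mmu-miR-3113-3p (chrX:151859606-151859625): uCCUGGCCcugguccugguc
Of the mature sequences in the table, 11 carried the let-7f seed and 1 that of miR-3113-3p. Mir3113 shares 76 of the 23507 exonic bases of Huwe1, and no exon of another gene overlapped those of Tcf3, Tcf4 or Tcf12.

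Among the HECT ligases, Huwe1 was 8th of the 24 genes tested by RPKM over all annotated exons in tdTom− and 9th in tdTom+ cells. It was 20th by the size of its log2 fold change. The RPKM rank depends on the length used, for Huwe1 23507 bases of merged exons against 14579 of its longest coding transcript. Of the other 25 HECT genes 23 were tested, of which 1 rose, 7 fell and 15 were not called. Over all genes tested 25.5% rose and 25.5% fell. Among the 23 the median log2 fold change was −0.10, against 0.00 over all genes tested. Arel1, a HECT ligase of apoptosis regulators, rose from 47.6 ± 2.43 to 95.02 ± 10.95 CPM (log2 fold change 1.00, adjusted p = 2.98e-11, higher in 8 of 8 mice, with no overlap). Wwp2 fell from 148 ± 16.2 to 60.6 ± 4.98 CPM (−1.28, adjusted p = 1.77e-12, lower in 8 of 8 mice). Hectd2, near the detection limit at 1.14 and 0.449 CPM, fell by 1.32 on the log2 scale, Smurf1, an antagonist of BMP signalling, by 0.47 and Hectd3 by 0.24.

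**Figure D2:**
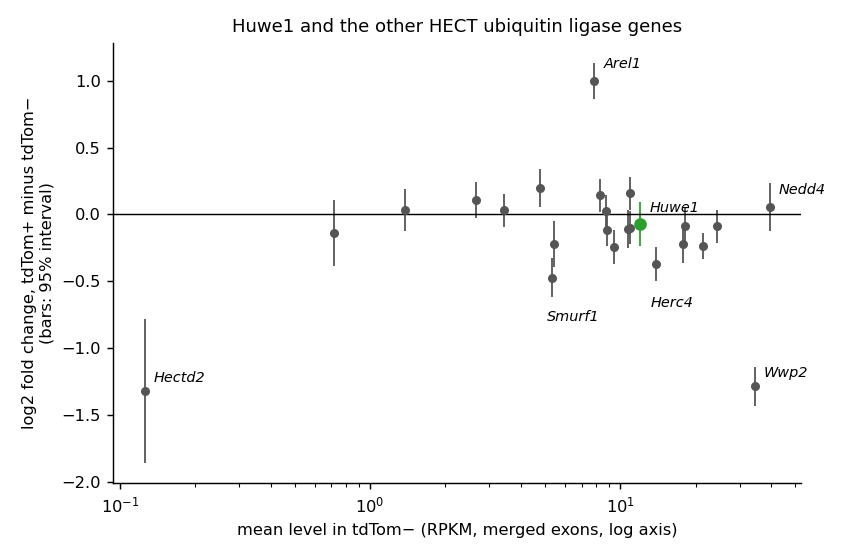
Log2 fold change (tdTom+ minus tdTom−, bars 95% intervals from edgeR) of the 24 tested HECT ligase genes against their mean RPKM in tdTom− cells (log axis), Huwe1 in green. Huwe1 lies close to 0 at 12.0 RPKM, Arel1 at 1.00 stands above the rest, and Wwp2 (−1.28) and Hectd2 (−1.32) stand below.

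Of 12 genes whose proteins are known HUWE1 substrates 1 rose, 5 fell and 6 were not called, with a median log2 fold change of −0.15. Over all genes tested 51.0% passed, 25.5% in each direction. Mfn2, a mitochondrial fusion gene, fell from 132 to 71.1 CPM (−0.89, adjusted p = 5.03e-11). Mcl1, the short-lived anti-apoptotic BCL2 relative, fell from 306 to 205 CPM (−0.58). Cdc6 (−0.38), Trp53 (−0.34) and Dvl1 (−0.28) also fell, and Polb, which encodes a DNA repair polymerase, rose (0.26, adjusted p = 0.00941). The Polb call was lost under 6 of 10 alternatives, with the direction kept (log2 fold change 0.19 to 0.27, adjusted p = 0.0102 to 0.0409). These are RNA levels, and no protein was measured.

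The 4 Id genes, whose products sequester E proteins, all passed, in opposite directions and with larger log2 fold changes than any E protein gene. Of all genes tested 51.0% passed. Id1 had 44.3, 51.3 and 71.6 CPM as lowest, median and highest in tdTom+ and 95.7, 124 and 148 CPM in tdTom− libraries, with no overlap. Its log2 fold change was −1.16 (SE 0.12, edgeR adjusted p = 2.35e-08, lower in 8 of 8 mice). Id3 fell by 1.04 on the log2 scale (SE 0.13, adjusted p = 5.25e-07), from 70.8 ± 13.7 to 34.5 ± 7.84 CPM, also with no overlap. Id2 fell by 0.54 (SE 0.11, adjusted p = 0.000262), lower in 8 of 8 mice with overlapping ranges, the mouse 4 and mouse 8 differences being the smallest. Id4 went the other way, and it was counted highly enough to test through its tdTom+ libraries. It had 0.212, 0.427 and 0.765 CPM in tdTom− and 5.0, 6.82 and 8.39 CPM in tdTom+ libraries, a log2 fold change of 3.94 (SE 0.19, adjusted p = 2.02e-13), or 15.4 times the level, higher in 8 of 8 mice. Even so Id4 stayed the least abundant Id gene per exon length in tdTom+ cells, at 4.18 ± 0.73 RPKM against 47.6 ± 9.30 for Id1 (SD, n = 8). The summed Id level relative to the summed E protein level, per exon length, was 7.47 ± 1.36 in tdTom− and 4.22 ± 0.93 in tdTom+ cells, lower in 8 of 8 mice by a factor of 1.53 to 2.42. The level of Atoh1 relative to the summed E proteins was 0.125 ± 0.04 in tdTom− and 3.23 ± 0.43 in tdTom+ cells. Both ratios depended on the length used, with the direction kept. On the longest coding transcript the Id ratio was 4.96 in tdTom− and 2.61 in tdTom+ cells. The Atoh1 ratio was then 0.0769 and 1.925.

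**Figure D3:**
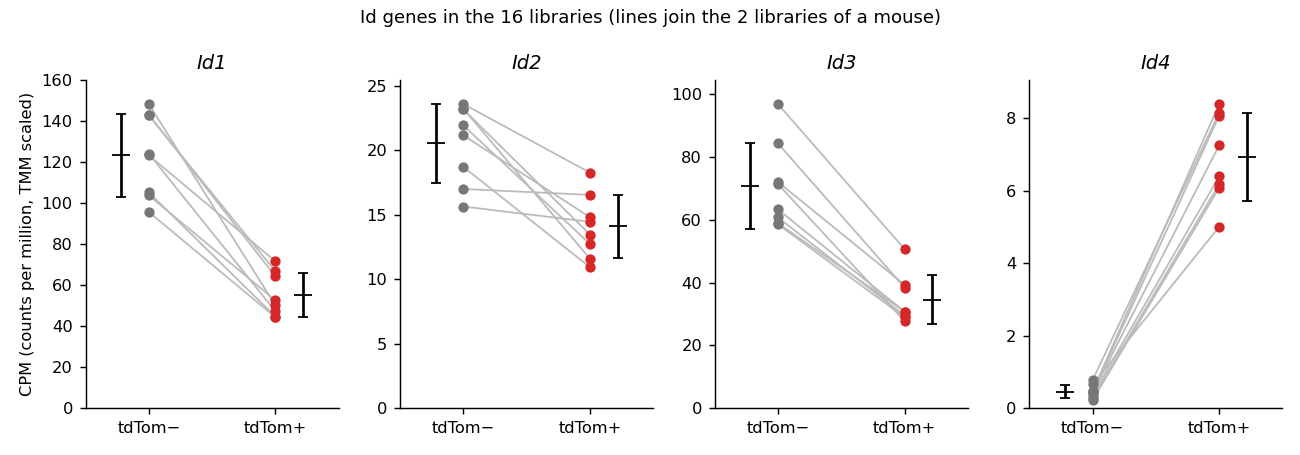
CPM (linear axis from 0) of Id1, Id2, Id3 and Id4 in the tdTom− (grey) and tdTom+ (red) libraries; a line joins the libraries of a mouse, and bars give the mean ± SD of 8. Id1, Id2 and Id3 run down in each mouse, and Id4 runs up from under 0.765 CPM to at least 5.0 CPM.

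Of 15 tissue-specific bHLH partners of E proteins, 7 were counted highly enough to test and all 7 passed, 4 higher and 3 lower. The 7 include Atoh1, whose locus drives the label, so its rise was set by the sort. Lyl1 was counted highly enough only in its tdTom+ libraries. Over all genes tested 51.0% passed. The median log2 fold change of the 7 was 1.58. After Atoh1, the largest rises were those of Bhlha15 (MIST1), a secretory maturation factor, from 1.36 ± 0.73 to 24.2 ± 6.81 CPM (log2 fold change 4.18, adjusted p = 1.28e-11), and Lyl1, best known from blood cells, from 0.163 ± 0.10 to 2.03 ± 0.28 CPM (3.65, adjusted p = 2.04e-10). Neither gene's ranges overlapped. Among those that fell were the enteroendocrine factor Neurod1 (−1.12) and the stem cell factor Ascl2 (−0.79). Neurog3, the enteroendocrine progenitor factor, also rose and is named outside the rule for named genes, with a log2 fold change of 1.58 (adjusted p = 0.000748) and 1.32 to 10.1 CPM in tdTom+ libraries. The enteroendocrine markers summed to 317 to 802 CPM in tdTom+ and 1414 to 4123 CPM in tdTom− libraries, and their part in the Neurod1 value was not tested. The other 8 genes, Neurod4, Neurog2, Ptf1a, Msc, Tcf21, Tcf15, Hand1 and Tal1, had at most 3 counts in any library.

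Among 10 E protein cofactors 3 rose, 2 fell and 5 were not called, with a median log2 fold change of −0.02. For comparison, 51.0% of all genes tested passed. The ETO family of corepressors, which E proteins recruit, split in direction. Cbfa2t3 rose from 6.99, 8.45 and 12.4 CPM (lowest, median and highest) in tdTom− to 101, 126 and 145 CPM in tdTom+ libraries, with no overlap. Its log2 fold change was 3.80 (SE 0.11, edgeR adjusted p = 4.20e-16), or 13.9 times the level, and at a mean of 123 CPM it was close to Atoh1, at 132 CPM, though CPM does not allow for length. Cbfa2t2 rose by little (0.21, adjusted p = 0.0063), and Runx1t1 fell (−1.64, adjusted p = 4.96e-06) from a low level, 1.71 to 0.524 CPM. Of the LIM-only bridging factors, Lmo2 rose (0.98, adjusted p = 0.000898) and Lmo4 fell (−0.60, adjusted p = 3.53e-06). The acetyltransferase gene Ep300 was among the 5 not called.

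The called changes among genes for protein turnover were small. In the E protein turnover list 1 of the 6 tested rose, 2 fell and 3 were not called. The share over all genes tested was 25.5% in each direction, and with the mouse as a block 57.2% passed in either direction. Rbx1, a RING subunit of cullin ligases, rose (0.32, adjusted p = 0.000225), and the scaffold Cul1 (−0.20, adjusted p = 0.00296) and the chaperone-linked ligase Stub1 (−0.22, adjusted p = 0.000856) fell. Skp1a (0.09) and Skp2 (−0.23, adjusted p = 0.0496) were among those that did not pass, and Asb2 had at most 2 counts in any library. Among 8 genes for ATOH1 stability and phosphorylation 0 rose, 3 fell (Stub1, Gsk3b with −0.17 and the casein kinase gene Csnk2a1 with −0.19) and 5 did not pass, and with the mouse as a block 5 fell. The 5 were the deubiquitinase gene Usp9x (0.13), the chaperone genes Hspa8 (−0.15) and Hspa4 (−0.17), Gsk3a (−0.15) and Csnk2a2 (−0.15). With the block, Hspa4 (adjusted p = 0.00202) and Gsk3a (adjusted p = 0.00883) passed. With the block and a length correction, Hspa4 passed (adjusted p = 0.00252) and Gsk3a did not (−0.11, adjusted p = 0.0379), nor did Gsk3a with GC and length correction (−0.06, adjusted p = 0.27). The median of this list was −0.16, and its summed level was lower in 8 of 8 mice. Hspa8 made up most of that sum, with means of 1034 CPM in tdTom+ and 1148 CPM in tdTom− libraries. It was itself lower in 8 of 8 mice, whereas Usp9x was higher in 6 of 8.

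**Figure D4:**
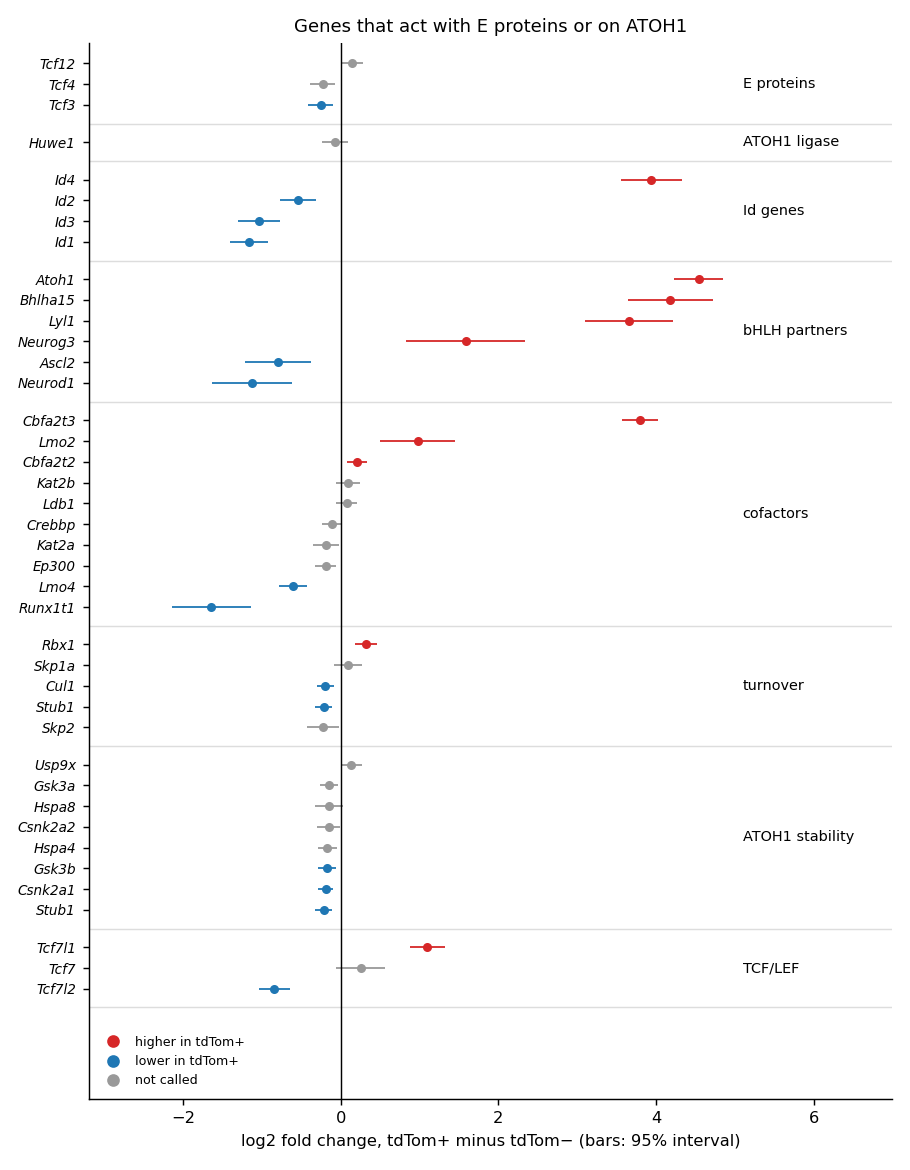
Log2 fold change (tdTom+ minus tdTom−) with 95% intervals from edgeR for the tested genes reported from the lists named at the right, coloured by whether the adjusted p was under 0.01 and in which direction. The members lie between −0.26 and 0.14, while Atoh1 (4.54), Bhlha15 (4.18), Id4 (3.94), Cbfa2t3 (3.80) and Lyl1 (3.65) lie far to the right.

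The Wnt effector genes that share protein names with Tcf3 and Tcf4 differed from them in size and, for Tcf7l1, in direction. Tcf7l1 rose from 25.1 ± 4.27 to 53.6 ± 8.75 CPM (log2 fold change 1.10, SE 0.11, adjusted p = 1.64e-08, higher in 8 of 8 mice, no overlap). Tcf7l2 fell from 63.9 ± 10.2 to 35.6 ± 4.38 CPM (−0.84, SE 0.10, adjusted p = 1.88e-07, lower in 8 of 8 mice, no overlap). Tcf7 had a log2 fold change of 0.26 (adjusted p = 0.143), and Lef1, with 1 to 8 counts per library, was not tested.

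The genes most like each member were ranked by Pearson's r of log2 CPM over the 16 libraries, as a description, because libraries of a mouse share animal, depth and preparation. Tcf3 was most like Nelfcd (r = 0.944), Cotl1 (0.934) and Hmga1b (0.930), and Tcf4 most like Gabpa (0.890), Mysm1 (0.865) and Zfp946 (0.854). Tcf12 was most like Prkca (0.902), Ubap2l (0.886) and Zfp319 (0.884), and Huwe1 most like Wdfy3 (0.915), 4932438A13Rik (0.879) and Trrap (0.864). With the group means taken off, the 3 nearest were Sept9 (0.949), Nelfcd (0.938) and Gm5641 (0.927) for Tcf3, Gabpa (0.805), Zfp335 (0.793) and Adgrv1 (0.781) for Tcf4, and Rufy2 (0.909), Mecom (0.894) and Prkca (0.892) for Tcf12. For Huwe1 the nearest were Herc1 (0.936), itself a HECT ligase gene, and Wdfy3 (0.914). The 4 genes named as near Huwe1 have long transcripts, with 15343 to 32276 exonic bases against a median of 3261 over all genes tested. Between members, r with group means taken off ran from 0.227 (Tcf4 and Tcf12) to 0.548 (Tcf4 and Huwe1).

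**Figure D5:**
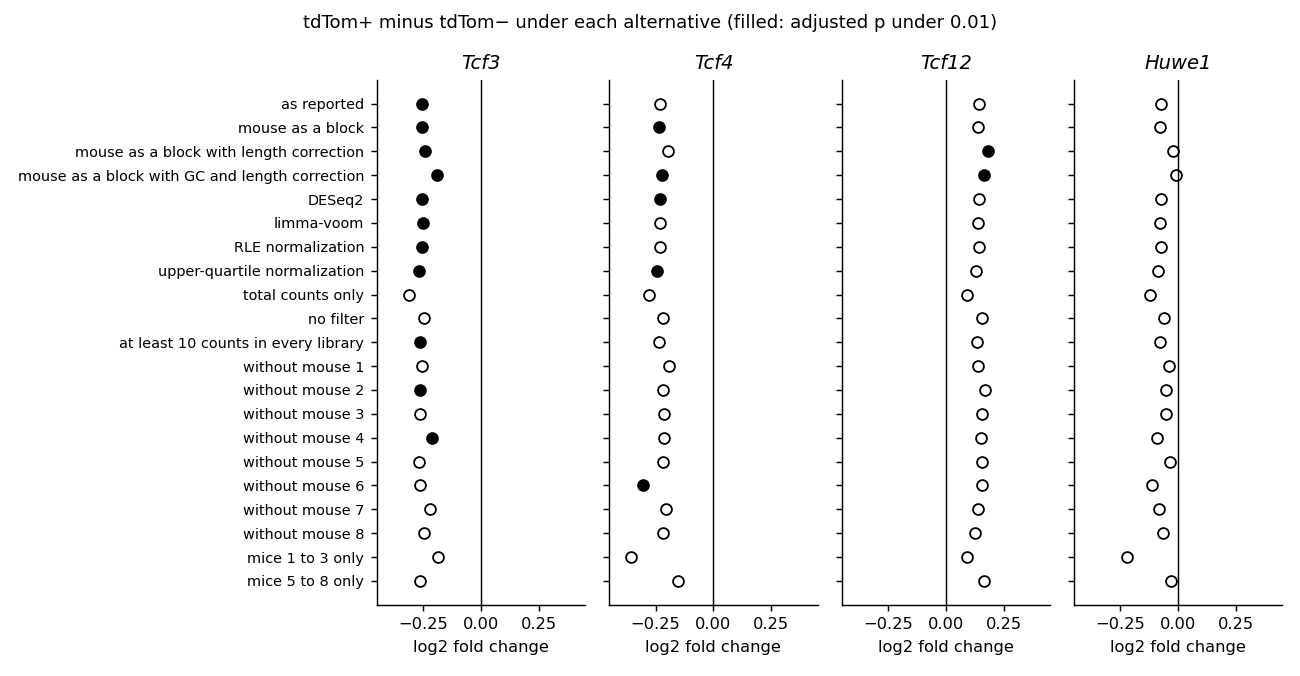
Log2 fold change of the 4 members (tdTom+ minus tdTom−) as reported and under each of 20 other settings, filled where the adjusted p was under 0.01. Tcf3, Tcf4 and Huwe1 stay below 0 and Tcf12 above 0 throughout, Tcf3 is filled in part, Tcf4 and Tcf12 in a few and Huwe1 in 0 of them.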

How the data were processed

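Colon libraries of EpCAM+ tdTom+ and tdTom− cells from 8 mice were compared. The authors made stranded mRNA libraries, read as single ends of 50 bases, aligned them to GRCm38 with TopHat2 2.1.1 and deposited counts per gene that featureCounts gave for reverse-strand primary alignments on exons. Those counts, not normalized, were used as deposited. Reads shared between genes were not counted, and intervals cover counting error and the spread between mice. Symbols came from GENCODE M21 for 44585 of 45513 genes.

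Testing was by the quasi-likelihood fit of edgeR 4.0.16 (R 4.3.3) after TMM scaling and the filterByExpr filter, with no term for the mouse, at a Benjamini-Hochberg adjusted p under 0.01 over 15841 genes. Log2 CPM used a prior count of 2. The exact permutation test flipped the signs of the 8 differences in log2 CPM of a mouse (256 ways) and was two-sided. It was run for each of the 4 members. Libraries labelled with 1 mouse number come from 1 animal, and their deviations from the group means correlated at 0.22 to 0.41, against at most 0.17 between mice, with 8 of 8 best matched to their own. The 3 series of mouse numbers (mice 1 to 3, mouse 4, mice 5 to 8) were treated as possible batches.

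Alternatives were the mouse as a block, alone and with corrections for gene length and GC content (splines with 5 degrees of freedom), DESeq2 1.42.0, limma 3.58.1 (voom), RLE, upper-quartile or total-count scaling, no filter, at least 10 counts in every library, each mouse left out, the series of mice 1 to 3 and that of mice 5 to 8 each alone, and an adjusted p of 0.05. Only the fits with the block used the pairing, and every other alternative had no term for the mouse. The correction for GC content and the transcript length for shares were chosen after seeing the data. Fits were tested on simulated data. The members and gene lists were chosen with earlier results of these data known. Named genes were the members, Atoh1, all genes of the short lists, the 3 highest and 3 lowest of longer lists among those that passed, the extremes of marker lists and the 3 most alike. A few genes that this rule names are counted in their lists but not reported here.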

Additional observations from a re-analysis of the deposited data

Results flagged for a closer look

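Among 17 genes and 2 library measures, 38 groups of 8 libraries were searched for a library far from the others, and 3 were found, where chance flags about 1 in 20. None was a value of Tcf3, Tcf4, Tcf12 or Huwe1. The tdTom− library of mouse 4 had 45791503 counts, the other tdTom− libraries 18318172 to 20668605. The same library was low in the enteroendocrine bHLH gene Neurod1, with a log2 CPM of 1.91 against 2.92 to 3.76 in the others. The tdTom+ library of mouse 2 had a log2 CPM of 3.501 for Bhlha15, against 4.46 to 5.15. Without mouse 4 the log2 fold changes were −0.21 for Tcf3, −0.22 for Tcf4, 0.15 for Tcf12 and −0.09 for Huwe1.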

How the results depend on the processing

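The Tcf3 call was lost, with the direction kept, under total counts only (log2 fold change −0.31, adjusted p = 0.0135), no filter (−0.24, adjusted p = 0.0107), mice 1 to 3 only (−0.19) and mice 5 to 8 only (−0.26). Tcf4 passed under the replicate block, that is with the mouse as a term (−0.23), under that block plus GC and length correction (−0.22), DESeq2 (−0.23), upper-quartile scaling (−0.24) and an adjusted p of 0.05 (−0.23). Tcf12 passed under the block with length correction (0.18) and with GC and length correction (0.17), but not under the block alone (0.14, adjusted p = 0.0125). With each mouse left out in turn, values ran from −0.27 to −0.21 for Tcf3, −0.30 to −0.19 for Tcf4, 0.13 to 0.17 for Tcf12 and −0.11 to −0.03 for Huwe1. The Huwe1 and Atoh1 calls did not change under any alternative. The causes were not tested. Mice 1 to 3 alone gave 2546 higher and 2559 lower genes, against 4032 and 4042, with fewer samples. The shares of the summed E protein level in tdTom+ and tdTom− cells moved with length by construction. Without division by length they were 34.5% and 39.3% for Tcf3, 14.8% and 16.7% for Tcf4 and 50.6% and 44.0% for Tcf12. With the longest coding transcript they were 54.5% and 59.9%, 8.05% and 8.75%, and 37.5% and 31.4%. Of 1229 values of other listed genes 1168 kept their call and direction, 42 gained a call, 16 lost it and 3 changed sign, all under total counts only, Itch (−0.0235), Herc3 (−0.0204) and Hace1 (−0.0164). Libraries of 16482530 counts or more put every member at 297 counts or above, whereas several listed genes, such as Lyl1 and Hectd2, had under 10 counts in some libraries and have wider errors.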

Other observations

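Huwe1 lies on the X chromosome, and Y-linked genes were counted at high levels in both libraries of 2 of the 8 mice. In those mice Huwe1 had 228 and 243 CPM in tdTom+ cells, below the 251 to 340 CPM of the other 6, whereas in tdTom− cells 255.9 and 295 CPM lay within the 243 to 315 CPM of the others. Both mice belong to the series of mice 1 to 3. The remaining mouse of that series, with few Y-linked counts, had a Huwe1 level of 251 CPM in its tdTom+ library.

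For Tcf12, 3 start sites were listed, and the window of a second start held a CAAGTG E-box that began 149 bases before it, while the window of the third start held 0. Both of these windows lie inside the counted span of Tcf12.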
